A study of Rattus norvegicus with 8 samples.

Results

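The genes described here are those of the mitogen-activated protein (MAP) kinase cascades and their inhibitors: the kinases of each tier (MAP4K, MAP3K, MAP2K and MAPK), proteins that bind MAPKs, the dual-specificity phosphatases (DUSP), and the Sprouty and Spred proteins. They were chosen by gene symbol, with earlier results of these data known. Their probe sets have a platform annotation with a single symbol beginning with Mapk, Map2k, Map3k, Map4k, Dusp, Spry or Spred and a number. The probe set of the highest mean was used for each gene. This gave 69 of the 14511 genes measured, from 72 probe sets, of which 40 were kinases and their binding proteins and 29 were inhibitors. RNA of perfused liver was measured on 8 whole-transcript arrays, 4 from livers perfused with hypoosmotic Krebs-Henseleit buffer (225 mosm/L) and 4 from livers perfused with normoosmotic buffer (305 mosm/L). All livers were from male Wistar rats aged 6 to 10 weeks, and all 8 samples belong to the 180 min time point. Whether each liver was perfused separately for each sample is not stated, so p-values reflect variation among these 8 samples only, and that variation may be technical. With 4 arrays per group, the number of arrays limits the precision.

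In a MAP kinase cascade a MAP4K or a small GTPase activates a MAP3K, which phosphorylates a MAP2K, which in turn phosphorylates a MAPK on a threonine and a tyrosine. The best known endpoints are the ERK kinases, driven mainly by growth factor receptors, and the JNK and p38 kinases, driven mainly by stress. The MAP kinase phosphatases of the DUSP family remove both phosphates again, and Sprouty and Spred proteins act upstream on receptor tyrosine kinase signalling to ERK. In perfused rat liver, swelling in hypoosmotic buffer is known to activate ERK and p38 through integrins and Src kinases. The arrays measured transcript levels and not phosphorylation.

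Hepatocyte markers, among them Alb and Ttr, had mean log2 values from 8.67 to 13.08. Of the 9 measured hepatocyte markers 0 passed the test (1 at an unadjusted p under 0.05, limma), and their summed level was 15.26 to 15.31 in hypoosmotic and 15.28 to 15.36 in normoosmotic livers (log2). Of 6 sinusoidal endothelial markers 1 passed (Kdr, a VEGF receptor, 0.66 with an adjusted p of 0.028, limma), and the other 5 had positive differences with adjusted p-values of 0.0791 to 0.617. Their summed log2 level was 9.78 to 10.40 in hypoosmotic against 9.60 to 9.80 in normoosmotic livers, which overlapped. Of 9 Kupffer cell markers 0 passed, with sums of 9.32 to 10.13 in hypoosmotic and 9.32 to 9.83 in normoosmotic livers. Of 8 stellate cell markers 0 passed, with sums of 8.72 to 9.63 in hypoosmotic and 9.10 to 9.15 in normoosmotic livers. At an unadjusted p under 0.05 (limma) these were 3 endothelial, 0 Kupffer and 2 stellate markers, beside 20.7% of all genes. The neutrophil markers, 6 of 6, and 5 of 7 lymphocyte markers lay near background, taken as a log2 value under 3.07, the 95th percentile of odorant receptor genes. The part of these cell types in the results below was not tested. In whole tissue, fewer cells of a type and less RNA per cell cannot be told apart. Hypoosmotic replicate 3 stood apart from the other 7 arrays on the second principal component of all genes, which held 18.9% of the variance.

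Between hypoosmotic and normoosmotic livers, 10 of the 69 genes fell and 1 rose (limma, Benjamini-Hochberg adjusted p under 0.05 over all genes tested). The share that passed was 15.9%, beside 7.07% of all genes with all 8 arrays. All genes include 3725 near background in both groups, against 5 of the 69. Without the dimmest 30% of genes, 744 genes fell and 390 rose, and of the members again 10 and 1. The share of all genes that passed was then above 7.07%, which limits each comparison with it here and below. Of all genes 4.62% fell and 2.45% rose. The counts depended on single arrays. Without normoosmotic replicate 3 or 4, 5 members fell, and without hypoosmotic replicate 1 or 2, 6 fell. Without each of the other 4 arrays, 7 to 9 fell. In 5 of these 8 fits 0 rose (without hypoosmotic replicate 2 or 3 or normoosmotic replicate 1, 2 or 3). Where 1 rose, it was Map3k13 without hypoosmotic replicate 1, Map3k7cl without hypoosmotic replicate 4 and Mapk14 without normoosmotic replicate 4. The 4 hypoosmotic values lay below the 4 normoosmotic values in 13 members and above them in 2, where over all genes this was so for 8.21% and 5.33%. The median log2 difference of the members, hypoosmotic minus normoosmotic, was -0.08, and that of all genes 0.01. By tier, 4 of 10 MAP kinase phosphatases and 2 of 7 MAP2Ks fell. In 4 further tiers 1 gene fell, of 4 Sprouty genes, 12 MAP3Ks, 12 other DUSP genes and 11 MAPKs. Of the 4 MAP4Ks, the 5 scaffold or binding proteins and the 3 Spred genes, 0 fell. Of the 11 MAPKs, 9 had positive differences. In the kinase tiers the falls were Map3k6, Map2k4, Map2k7 and Mapk7, and among the inhibitors Dusp6, Dusp8, Dusp10, Dusp16, Dusp11 and Spry1. Map3k13 rose. The largest fall was 1.90-fold (Dusp10) and the rise 1.89-fold. Of the 69 genes 5 lay near background in both groups (Mapk4, Mapk15, Mapk8ip2, Dusp15 and Dusp21), and none of these passed.

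**Figure D1:**
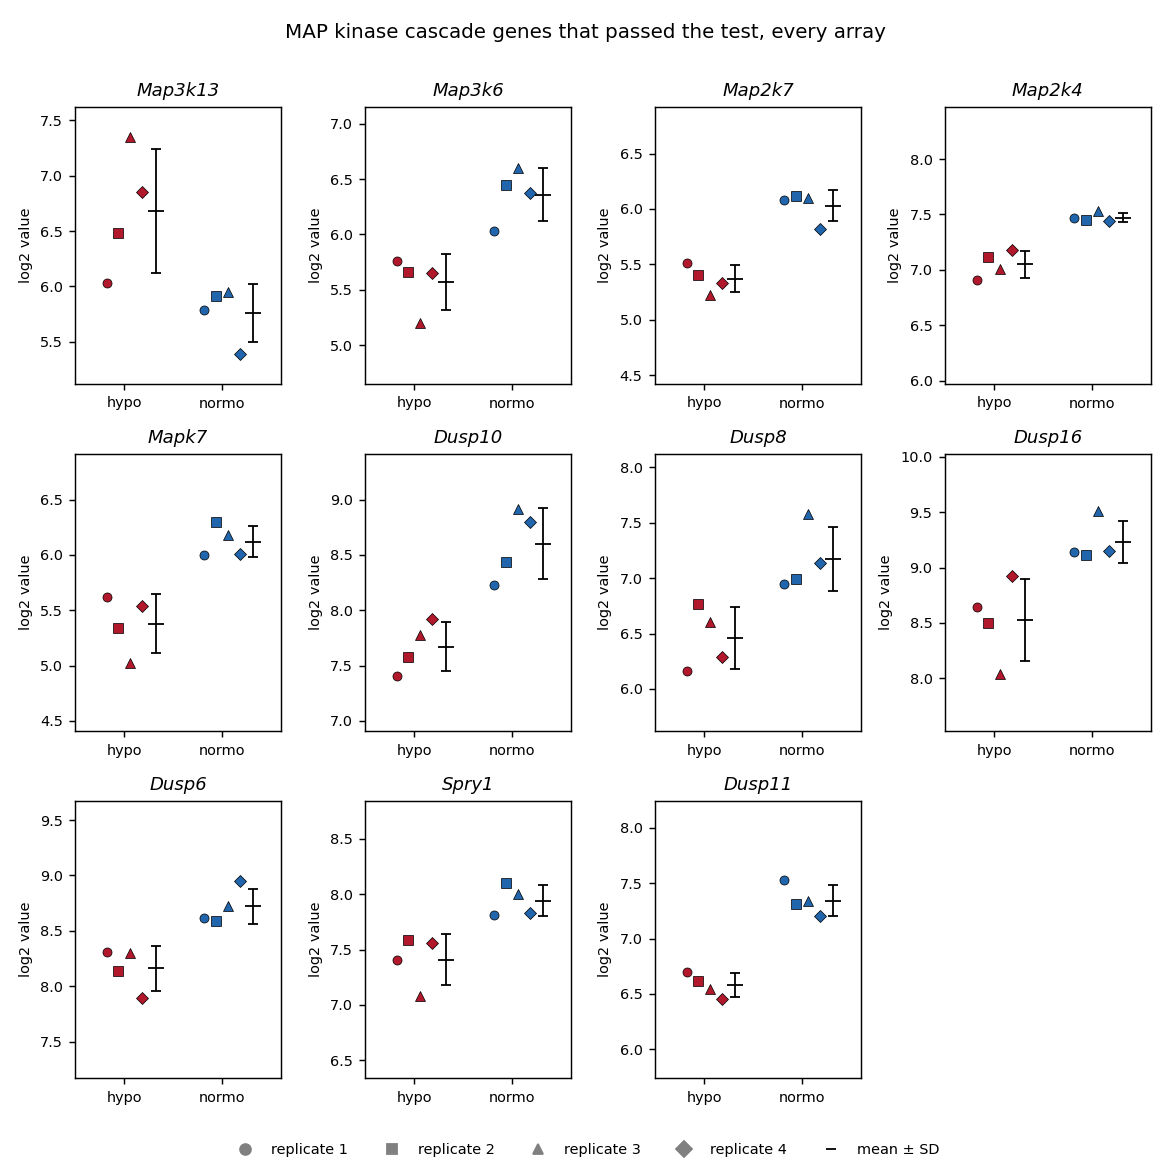
Log2 values on every array for the 11 genes that passed, hypoosmotic (hypo, red) left and normoosmotic (normo, blue) right, with the mean ± SD of 4 arrays as black bars and 1 symbol shape per replicate number. Each panel spans the same range of 2.5 log2 units, and in each panel the groups do not overlap.

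Some of the kinases and phosphatases that act directly on JNK fell. The MAP2Ks that phosphorylate JNK, Map2k4 and Map2k7, fell. So did Dusp8, Dusp10 and Dusp16, the phosphatases grouped here as acting on JNK and p38. The log2 differences were -0.92 to -0.42. These 5 were grouped with their results known, and 4.62% of all genes fell. This group does not hold every phosphatase that can act on JNK. The inducible nuclear phosphatases Dusp1, Dusp2, Dusp4 and Dusp5 were kept apart from it. Of those 4, 0 passed (0 at an unadjusted p under 0.05, limma), with differences of 0.11 to 0.37. The 12 DUSP genes outside the MAP kinase phosphatases were not assigned to a kinase. Of these, 7 had positive and 5 negative differences, and only Dusp11 passed. Of the MAP3Ks described below as acting on JNK, Map3k13 rose, and Map3k7 (adjusted p = 0.0841) and Map3k11 (0.154, limma) did not pass. Map3k6, described below as a stress kinase, fell (adjusted p = 0.0133, limma). Of the 12 MAP3Ks, 10 had negative differences. The JNK genes themselves, Mapk8, Mapk9 and Mapk10, and the JNK scaffolds Mapk8ip1, Mapk8ip2 and Mapk8ip3 did not pass, 0 of 6 (1 at an unadjusted p under 0.05, limma).

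Map2k7 (NCBI Gene 363855), the MAP2K specific for JNK, had log2 values of 5.51, 5.40, 5.22 and 5.33 in hypoosmotic livers, against 6.08, 6.12, 6.10 and 5.82 in normoosmotic livers. The groups lay apart, with normoosmotic replicate 4 the lowest of its group. The fall was 1.59-fold, with a log2 difference of -0.67 ± 0.11 (limma SE) and an adjusted p of 0.0076 (limma). Map2k4 (NCBI Gene 287398), which phosphorylates JNK and also p38, had 6.91, 7.12, 7.01 and 7.18 in hypoosmotic livers, against 7.47, 7.45, 7.53 and 7.44 in normoosmotic livers. The normoosmotic values lay close together, and every hypoosmotic value was below them. Its log2 difference was -0.42 ± 0.10 (SE, adjusted p = 0.028, limma). Map2k7 kept its call without each of the 8 arrays, while Map2k4 did so for 1 of them, hypoosmotic replicate 4 (adjusted p = 0.0281), and had adjusted p-values of 0.0516 to 0.0862 without each of the other 7 arrays.

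Dusp10 (NCBI Gene 63995), a phosphatase of JNK and p38, had log2 values of 7.41, 7.58, 7.78 and 7.92 in hypoosmotic livers, against 8.23, 8.44, 8.91 and 8.80 in normoosmotic livers. All 4 hypoosmotic values were lower than every normoosmotic value. The log2 difference was -0.92 with a 95% interval of -1.29 to -0.56 (limma, adjusted p = 0.0102), and the gene passed whichever array was left out. Dusp8 (NCBI Gene 361679), of the same substrate group, had 6.16, 6.77, 6.60 and 6.29 in hypoosmotic livers, against 6.95, 6.99, 7.58 and 7.14 in normoosmotic livers. Here the gap between the groups was small beside the spread within them, since the highest hypoosmotic array came close to the lowest normoosmotic ones. Dusp8 fell by 0.71 on the log2 scale (adjusted p = 0.0315, limma). It did not pass without hypoosmotic replicate 1 (0.0807) or 4 (0.0656), or without normoosmotic replicate 3 (0.0813) or 4 (0.0718).

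Dusp16 (NCBI Gene 297682), whose product holds JNK inactive in the cytoplasm and nucleus by dephosphorylating it, had log2 values of 8.64, 8.50, 8.04 and 8.92 in hypoosmotic livers, against 9.14, 9.11, 9.51 and 9.15 in normoosmotic livers. Normoosmotic replicate 3 stood above its group and hypoosmotic replicate 3 was the lowest of all. The log2 difference was -0.70 ± 0.17 (SE, adjusted p = 0.0361, limma). It passed without hypoosmotic replicate 3 (0.0495) or 4 (0.0179) and had adjusted p-values of 0.0611 to 0.105 without each of the other 6 arrays, the highest without normoosmotic replicate 3.

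Of the JNK genes, Mapk8 had 5.96, 5.82, 6.51 and 6.59 in hypoosmotic livers and 6.41, 6.75, 6.59 and 6.69 in normoosmotic livers. Mapk9 had 7.96, 7.94, 8.19 and 8.08 in hypoosmotic livers and 8.07, 8.02, 7.10 and 7.51 in normoosmotic livers. In both genes the groups overlapped, and the differences had opposite signs, -0.39 (95% interval -0.77 to -0.01, adjusted p = 0.234) for Mapk8 and 0.37 (-0.06 to 0.79, adjusted p = 0.327, limma) for Mapk9. Mapk10, the JNK gene best known from neurons, had a difference of 0.12 (-0.22 to 0.47). Among the scaffolds, which hold the JNK module together, Mapk8ip3 was at -0.41 (-0.86 to 0.05, adjusted p = 0.302).

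Of the 4 p38 MAPKs and the 2 MAP2Ks dedicated to them, 0 passed, with 2 at an unadjusted p under 0.05 (limma). Mapk14, which encodes p38 alpha, the form found in most tissues, had 7.50, 7.19, 7.05 and 7.29 in hypoosmotic livers, against 6.80, 6.72, 6.31 and 7.13 in normoosmotic livers. Only normoosmotic replicate 4 reached into the hypoosmotic range. The difference of 0.52 (0.15 to 0.88) did not pass (adjusted p = 0.0909, limma), but it did without normoosmotic replicate 4 (adjusted p = 0.0491). Mapk11, Mapk12 and Mapk13 had differences from 0.07 to 0.14. Of the p38 activators, Map2k6 was at 0.32 (0.01 to 0.63, adjusted p = 0.218) and Map2k3 at -0.24 (-0.55 to 0.07, adjusted p = 0.395, limma).

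In the ERK branch the receptor-side inhibitor Spry1 and the ERK phosphatase Dusp6 fell, and neither MAP2K of ERK passed. Dusp6 (NCBI Gene 116663), a cytoplasmic phosphatase that acts on ERK and whose transcription ERK activity is known to induce, had log2 values of 8.31, 8.14, 8.30 and 7.89 in hypoosmotic livers, against 8.62, 8.59, 8.72 and 8.95 in normoosmotic livers. The groups lay apart, with replicate 4 the lowest of the hypoosmotic and the highest of the normoosmotic arrays. The log2 difference was -0.56 ± 0.13 (SE, adjusted p = 0.0252, limma), but Dusp6 missed the threshold without hypoosmotic replicate 2 (0.0646) or normoosmotic replicate 3 (0.0681) or 4 (0.0697). Spry1 (NCBI Gene 294981) had 7.41, 7.59, 7.08 and 7.56 in hypoosmotic livers, against 7.81, 8.10, 8.0 and 7.83 in normoosmotic livers. Hypoosmotic replicate 3 was the lowest array, and the other hypoosmotic values lay closer to the normoosmotic ones without reaching them. Spry1 fell by 0.53 on the log2 scale (adjusted p = 0.0372, limma). It passed in 1 of 8 fits, without hypoosmotic replicate 4 (0.0394), and had adjusted p-values of 0.0505 to 0.101 without each of the other 7 arrays. When all probe sets of the array were tested together its adjusted p was 0.0519.

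The other Sprouty and Spred genes did not pass, 0 of 6 (0 at an unadjusted p under 0.05, limma). Spry2 was at 0.13 (-0.12 to 0.39), Spry3 at -0.16, Spry4 at -0.04 (-0.26 to 0.18) and Spred1, which with neurofibromin restrains Ras, at -0.29 (-0.59 to 0.01, adjusted p = 0.269, limma). For Map2k1 (MEK1) the 4 hypoosmotic values, 6.75, 6.75, 6.12 and 6.79, all lay below the normoosmotic values, 6.84, 7.0, 7.13 and 7.29. Hypoosmotic replicate 3 was far below its group, the gap elsewhere was small, and the difference of -0.46 (-0.82 to -0.11) did not pass (adjusted p = 0.123, limma). Map2k2 (MEK2) was at -0.09 (-0.30 to 0.12, adjusted p = 0.697, limma).

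The inducible nuclear phosphatases Dusp1, Dusp2, Dusp4 and Dusp5, which are transcribed early after growth factor or stress signals, did not pass, 0 of 4 (0 at an unadjusted p under 0.05, limma). Their differences were all positive, 0.11 to 0.37. Dusp1, the phosphatase MKP-1, had log2 values of 7.15, 8.25, 9.32 and 8.20 in hypoosmotic livers and 8.06, 7.47, 9.31 and 7.40 in normoosmotic livers. Replicate 3 was by far the highest array in each group, and the groups overlapped over nearly their whole range. The interval of the Dusp1 difference, -0.86 to 1.20, was wide (adjusted p = 0.897, limma), and without hypoosmotic replicate 3 the difference was -0.19. Dusp5, a nuclear phosphatase of ERK, had 7.59, 8.09, 8.77 and 8.55 in hypoosmotic livers and 7.45, 7.73, 8.63 and 7.71 in normoosmotic livers, a difference of 0.37 (-0.25 to 0.99). In that gene too normoosmotic replicate 3 stood above its group. Of the ERK phosphatases other than Dusp6, Dusp7 was at 0.15 (-0.14 to 0.45) and Dusp9 at -0.14 (-0.46 to 0.19).

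**Figure D2:**
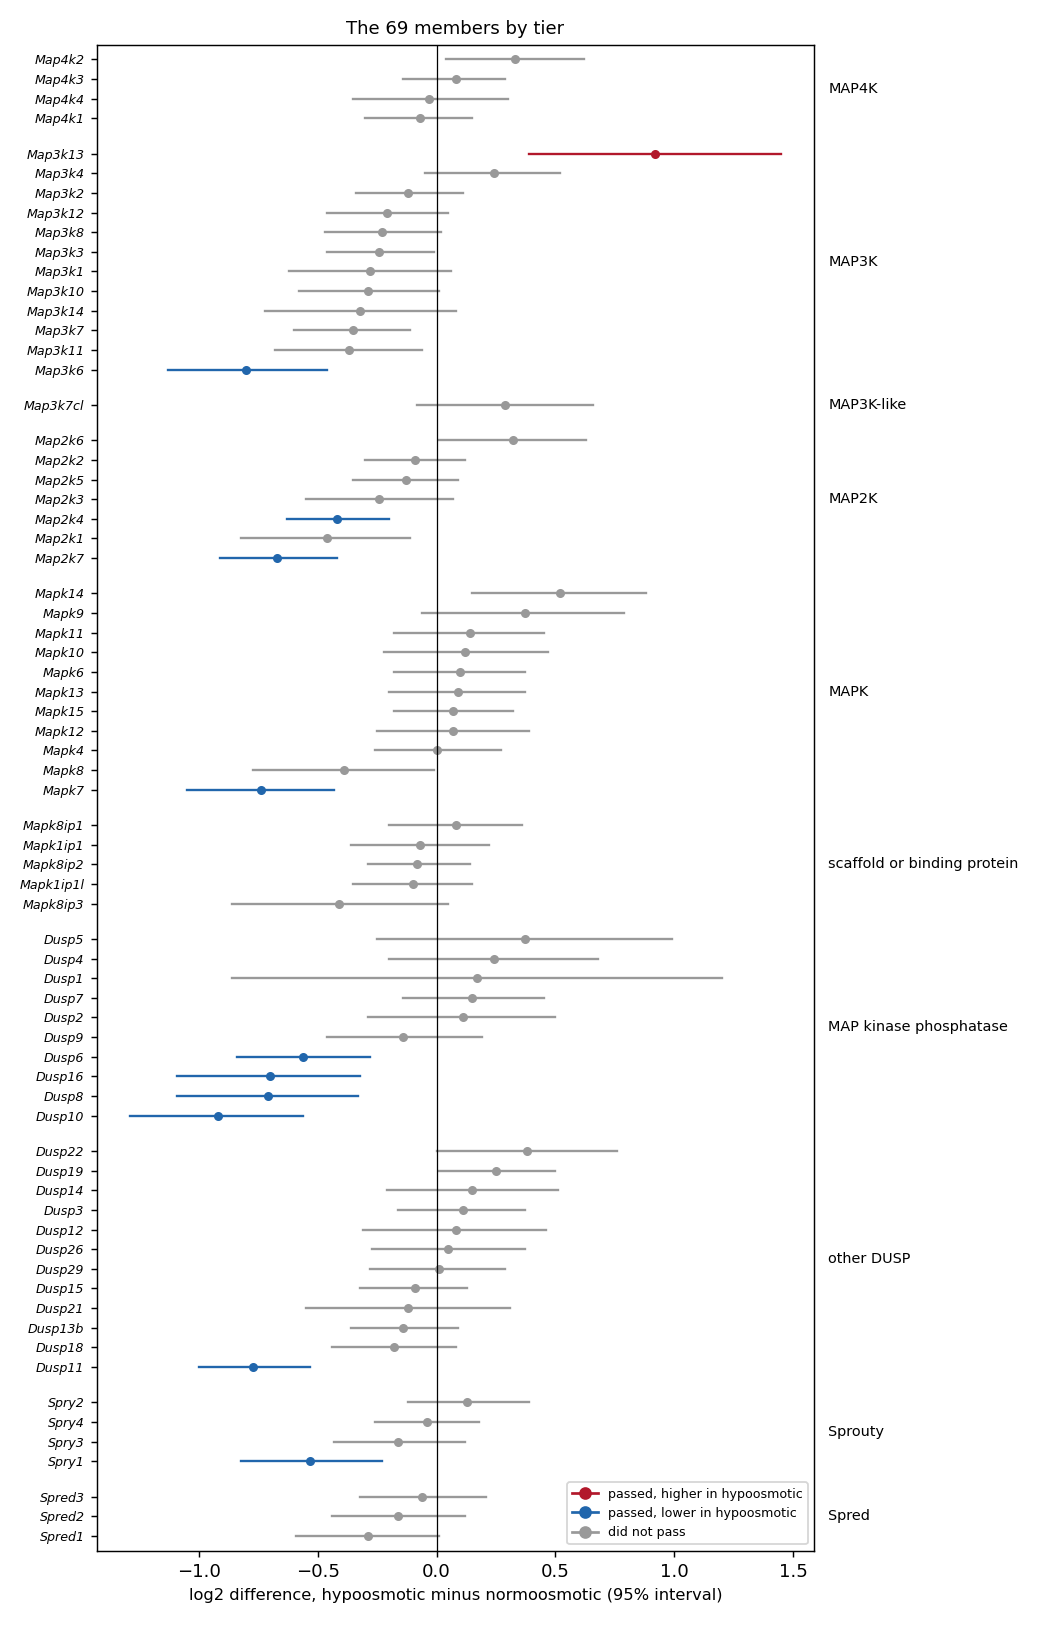
Log2 difference (hypoosmotic minus normoosmotic) with its 95% limma interval for all 69 genes, grouped by tier, with genes that passed in blue (lower in hypoosmotic livers) or red (higher) and the others in grey. Of the 10 MAP kinase phosphatases, 4 lie between -0.92 and -0.56 and 6 between -0.14 and 0.37, and 10 of the 12 MAP3K genes lie below 0.

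The ERK5 branch, which carries growth factor and shear stress signals, showed a fall in its MAPK. Mapk7 (NCBI Gene 114509), which encodes ERK5, had log2 values of 5.62, 5.34, 5.02 and 5.54 in hypoosmotic livers, against 6.00, 6.30, 6.18 and 6.01 in normoosmotic livers. The groups were well apart, with hypoosmotic replicate 3 the lowest array. The fall was 1.67-fold (log2 difference -0.74 ± 0.14 SE, adjusted p = 0.0122, limma), and no single omitted array took the call away. Its MAP2K, Map2k5, was at -0.13 (-0.35 to 0.09, adjusted p = 0.532), and the MAP3Ks known to act on that MAP2K, Map3k2 and Map3k3, were at -0.12 (-0.34 to 0.11) and -0.24 (-0.46 to -0.01, adjusted p = 0.213, limma). Of the atypical MAPKs, Mapk6 (ERK3) was at 0.10, Mapk4 (ERK4) at 0.00 and Mapk15 at 0.07, and 0 of 3 passed (0 at an unadjusted p under 0.05, limma).

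Among the 12 measured MAP3Ks, the entry tier for stress and receptor signals, 1 fell, 1 rose and 10 had negative differences. The share that passed was 16.7%, beside 7.07% of all genes. Map3k6 (NCBI Gene 313022), also called ASK2, a stress kinase that pairs with ASK1, had log2 values of 5.76, 5.66, 5.20 and 5.65 in hypoosmotic livers, against 6.03, 6.45, 6.60 and 6.37 in normoosmotic livers. All hypoosmotic values were lower, hypoosmotic replicate 3 most of all. The log2 difference was -0.80 ± 0.15 (SE, adjusted p = 0.0133, limma), and it passed whichever array was left out.

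Map3k13 (NCBI Gene 303823), the leucine zipper kinase LZK, which drives JNK signalling in neurons, had 6.03, 6.48, 7.35 and 6.85 in hypoosmotic livers, against 5.79, 5.91, 5.95 and 5.39 in normoosmotic livers. The hypoosmotic arrays were spread widely, replicate 3 highest, and replicate 1 lay just above the normoosmotic range. The rise was 0.92 (0.39 to 1.45, adjusted p = 0.0449, limma). Of the 8 arrays, only the omission of hypoosmotic replicate 1 kept the call (0.0184), and it had 0.0665 to 0.123 without each of the other 7. It also did not pass after median centring (0.0522), a further quantile normalization (0.0514), with array weights (0.0688) or with all probe sets tested together (0.0616). Its closest relative, Map3k12 (DLK), was at -0.21 (-0.46 to 0.05, adjusted p = 0.361).

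The remaining MAP3Ks lay between -0.37 and 0.24. In Map3k7, the kinase TAK1, which links cytokine receptors to JNK, p38 and NF-kB, the hypoosmotic values 6.77, 6.77, 6.49 and 6.89 were all below the normoosmotic values 7.08, 7.14, 7.16 and 6.96. The gap between the groups was narrow, and the difference of -0.35 (-0.60 to -0.11) had an adjusted p of 0.0841 (limma). Map3k11 (MLK3), another activator of JNK, was likewise below in every hypoosmotic array, at -0.37 (-0.68 to -0.06, adjusted p = 0.154). Map3k8 (Tpl2), which couples inflammatory receptors to MEK, was at -0.23, and Map3k14 (NIK), of the alternative NF-kB pathway, at -0.32. Map3k4, which Gadd45 proteins are known to bind and activate, was at 0.24 (-0.05 to 0.52). A second probe set of Map3k14 lay near background and had a difference of 0.09.

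The 4 MAP4Ks did not pass (1 at an unadjusted p under 0.05, limma). Map4k2 was at 0.33 (0.04 to 0.62, adjusted p = 0.18), Map4k3 at 0.08, Map4k1, a kinase of blood cells, at -0.07, and Map4k4 at -0.03 (-0.35 to 0.30). Map4k4 had 7.15, 6.63, 6.67 and 6.58 in hypoosmotic livers and 6.62, 7.01, 6.62 and 6.88 in normoosmotic livers, with hypoosmotic replicate 1 above its group. Of the proteins named for binding ERK, Mapk1ip1 was at -0.07 and Mapk1ip1l at -0.10. Map3k7cl, which shares sequence with TAK1 without a kinase domain, was at 0.29 (-0.08 to 0.66, adjusted p = 0.392), and it passed without hypoosmotic replicate 4 (adjusted p = 0.0343, limma).

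Of the 12 DUSP genes outside the MAP kinase phosphatase group, many of which act on other substrates, 1 fell. This was 8.33%, beside 7.07% of all genes that passed in either direction. Dusp11 (NCBI Gene 297412), whose enzyme removes phosphates from the 5′ end of RNA, had log2 values of 6.70, 6.62, 6.54 and 6.45 in hypoosmotic livers, against 7.53, 7.31, 7.34 and 7.20 in normoosmotic livers. Both groups were tight and lay well apart. The fall was 1.70-fold (log2 difference -0.77 ± 0.11 SE), and its adjusted p of 0.00431 (limma) was the smallest of the 69 genes. The call held without each of the 8 arrays. Dusp19 was above in every hypoosmotic array, at 3.35, 3.28, 3.65 and 3.32 against 3.20, 3.14, 3.04 and 3.20 in normoosmotic livers. These values were close to background, and the difference of 0.25 (0.01 to 0.50) did not pass (adjusted p = 0.212, limma). Dusp22, a phosphatase of T cell signalling, was at 0.38 (0.00 to 0.76, adjusted p = 0.241), and the other 9 of the group lay between -0.18 and 0.15. The probe sets of Dusp26 differed, at 0.05 for the one used and 0.42 (adjusted p = 0.135 among all probe sets) for the other.

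Related members were also set against each other in 13 pairs, as the difference between the pair on each array. The pairs were chosen after their values were seen, so the values are a description without a test. The size of a difference between probe sets carries no meaning, only its shift between the buffers. The groups did not overlap in 4 pairs, and each of these holds a gene already counted as changed (Map3k13, Dusp6 or Spry1). Map3k13 minus Map3k12 was 2.51 to 3.64 in hypoosmotic and 1.61 to 2.29 in normoosmotic livers. Dusp6 minus Dusp7 was 1.62 to 1.99 in hypoosmotic and 2.20 to 2.93 in normoosmotic livers. Spry1 minus Spry2 was 3.02 to 3.56 in hypoosmotic and 3.65 to 4.07 in normoosmotic livers. Spry1 minus Spry4 was 2.91 to 3.63 in hypoosmotic and 3.70 to 3.92 in normoosmotic livers, so in both Sprouty pairs the hypoosmotic arrays were the lower ones. Mapk8 minus Mapk9 was -2.12 to -1.49 in hypoosmotic and -1.66 to -0.51 in normoosmotic livers, with overlapping groups. Dusp8 minus Dusp16 was -2.63 to -1.44 in hypoosmotic and -2.19 to -1.93 in normoosmotic livers, so the hypoosmotic arrays spread to both sides of the normoosmotic ones.

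**Figure D3:**
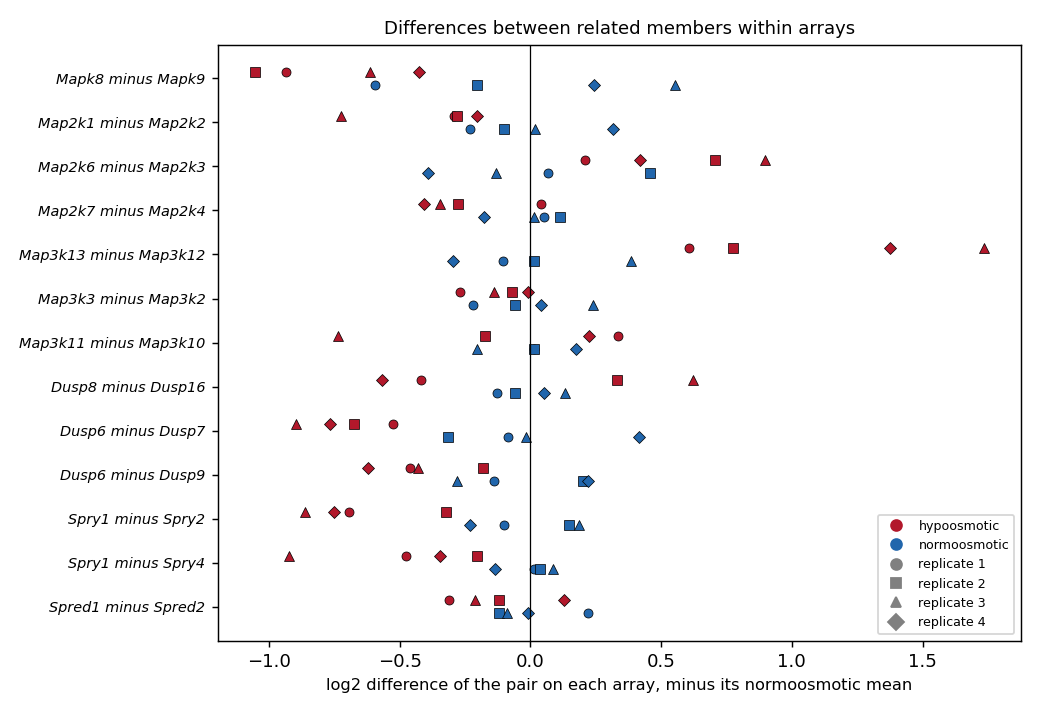
Difference between the log2 values of 2 related genes on each array, shown relative to its mean over the 4 normoosmotic arrays, with hypoosmotic arrays in red above normoosmotic arrays in blue and 1 symbol shape per replicate number. The red and blue points do not overlap for Map3k13 minus Map3k12, Dusp6 minus Dusp7, Spry1 minus Spry2 and Spry1 minus Spry4.

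Promoter sequences from RefSeq (build GRCr8) were found for 61 of the 69 genes, among them all 11 that passed. The 250 bases before the annotated start were searched on both strands. The core letters of the cAMP response element, TGACG, lay in 4 of the 11 promoters of genes that passed, in 34.4% of the 61 and in 20% of 27457 rat promoters. The whole element, TGACGTCA, which contains that core, lay in Dusp11, which fell, and Map3k13, which rose. It lay in 5 of the 61 (8.2%) and in 1.78% of all promoters. The core lay in 21 of the 61, so it was not particular to the genes that passed. Several other motifs, given below, were searched too. The 4 promoters with the core are shown as an example, with every match on either strand in capitals.
Dusp11: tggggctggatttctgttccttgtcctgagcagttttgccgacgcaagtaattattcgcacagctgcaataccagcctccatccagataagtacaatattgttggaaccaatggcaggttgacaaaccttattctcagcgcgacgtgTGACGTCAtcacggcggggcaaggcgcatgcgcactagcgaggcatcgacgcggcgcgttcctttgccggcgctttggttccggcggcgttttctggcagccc
Map3k13: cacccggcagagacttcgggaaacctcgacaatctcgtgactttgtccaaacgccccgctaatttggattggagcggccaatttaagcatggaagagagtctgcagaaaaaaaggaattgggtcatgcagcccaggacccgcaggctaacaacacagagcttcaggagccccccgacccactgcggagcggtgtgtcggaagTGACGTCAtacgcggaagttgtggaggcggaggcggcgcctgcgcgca
Dusp16: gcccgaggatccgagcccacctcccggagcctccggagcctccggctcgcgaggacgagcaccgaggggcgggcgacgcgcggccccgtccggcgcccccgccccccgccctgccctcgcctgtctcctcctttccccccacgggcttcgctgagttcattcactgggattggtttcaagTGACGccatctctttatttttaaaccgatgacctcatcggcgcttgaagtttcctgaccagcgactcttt
Map2k4: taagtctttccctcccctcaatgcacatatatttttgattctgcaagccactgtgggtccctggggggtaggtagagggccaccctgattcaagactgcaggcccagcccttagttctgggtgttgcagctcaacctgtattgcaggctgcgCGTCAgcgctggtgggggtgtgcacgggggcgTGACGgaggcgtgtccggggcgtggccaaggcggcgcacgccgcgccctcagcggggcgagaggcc

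These sequences lie at chr4:119942568-119942817 (minus strand) for Dusp11, chr11:92739664-92739913 (minus strand) for Map3k13, chr4:169361509-169361758 (minus strand) for Dusp16 and chr10:50947040-50947289 (minus strand) for Map2k4, all in GRCr8. Counted from the start, the whole element lay at -103 to -96 in Dusp11 and at -48 to -41 in Map3k13. The ETS core CCGGAA, which Elk1 and its relatives can bind, lay in 4 of the 11 (Dusp11, Map2k7, Map3k6 and Mapk7), in 26.2% of the 61 and in 14.1% of all promoters. The AP-1 letters TGANTCA lay in 1 of the 11, Map2k4, and in 6.99% of all promoters. The tonicity element of Nfat5 and the CArG box of serum response factor matched 0 of the 11, beside 5.61% and 1.62% of all promoters. The GC box GGGCGG lay in 5 of the 11, in 72.1% of the 61 and in 33.5% of all promoters. The Egr1 letters GCGNGGGCG lay in 2 of the 11, 13.1% of the 61 and 4.79% of all. An NF-kB motif lay in 1 of the 11, 18% of the 61 and 6.92% of all. TATAAA and the Myc E-box CACGTG matched 0 of the 11, beside 14.1% and 6.18% of all promoters. The promoters of the 61 were rich in G and C, at a median of 64.4%. The median was 57.2% for the 11974 tested genes with a promoter sequence, and 61.2% for the 11. The observed over expected frequency of CG had medians of 0.79 (the 61), 0.63 (tested genes) and 0.87 (the 11). Motifs such as TGACG, TGACGTCA and CCGGAA hold CG. The shares of all promoters cover 27457 promoters, not only those of tested genes. The part of base content in the motif shares was not tested. A match describes letters in this window and is not evidence of binding.

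Of 74 measured genes that act above or below the cascades, 9 fell and 1 rose (13.5% passed, beside 7.07% of all genes). Their median difference was -0.11, and 1 of the 74 lay near background in both groups. In the Ras module, 3 of 21 fell and 0 rose. Of these, Nf1 and Rasa1 encode GTPase-activating proteins that switch Ras off, and Sos2 encodes an exchange factor that switches it on. Nf1 had log2 values of 6.48, 6.08, 6.05 and 6.44 in hypoosmotic livers, against 6.93, 6.77, 7.05 and 6.99 in normoosmotic livers, with the groups well apart. Nf1 fell by 0.67 (adjusted p = 0.0122), Sos2 by 0.58 (0.0117) and Rasa1 by 0.55 (0.0346) on the log2 scale (limma). Rasa1 passed without hypoosmotic replicate 4 (0.0335) or normoosmotic replicate 3 (0.0416), and had 0.0557 to 0.0914 without each of the other 6 arrays. Hras was at -0.21 (adjusted p = 0.6) and Braf at -0.20 (adjusted p = 0.266). Of 15 upstream regulators, the kinases Taok1 and Taok2, which act at the MAP3K level, fell by 0.51 (adjusted p = 0.0287) and 0.57 (0.0109). Taok3 had the opposite sign, at 0.59 (0.19 to 0.99), and did not pass (adjusted p = 0.0815, limma). Over the 15, 8 differences were negative and 7 positive. Taok1 passed in 2 of the fits without 1 array, those without hypoosmotic replicate 1 (0.0324) and 4 (0.0263), and had 0.0519 to 0.0865 in the other 6.

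Of the 8 kinases that MAPKs phosphorylate in turn, such as the RSK, MK and MNK kinases, 0 passed (0 at an unadjusted p under 0.05, limma), with differences from -0.13 to 0.27. Of 23 transcription factors and other nuclear targets, 4 fell and 1 rose (21.7% passed, beside 7.07% of all genes). Atf7, a relative of Atf2 that stress kinases phosphorylate, had 6.12, 5.94, 5.78 and 5.80 in hypoosmotic livers, against 6.87, 6.64, 6.73 and 6.61 in normoosmotic livers, and every hypoosmotic value was lower. The falls were 0.80 for Atf7 (adjusted p = 0.00431), 0.49 for Elk1, an ERK substrate at serum response elements (0.0173), 0.55 for Creb1 (0.0204) and 0.60 for Max, the partner of Myc (0.0323, limma). Elk3, a relative of Elk1 that can repress the same elements, rose by 0.53 (adjusted p = 0.0223). Without 1 array, Elk1 did not pass without normoosmotic replicate 4 (0.0524), and Creb1 did not without normoosmotic replicate 1 (0.0539), 2 (0.0556) or 4 (0.0518). Elk3 did not pass without hypoosmotic replicate 2 (0.0584) or normoosmotic replicate 1 (0.0573), 2 (0.0556) or 4 (0.0629). Max did not pass without hypoosmotic replicate 1 (0.0705) or normoosmotic replicate 2 (0.0859), 3 (0.0873) or 4 (0.0731), or with the mean of its probe sets (0.0681).

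Fos, an early target of ERK signalling, had 5.46, 6.31, 8.15 and 5.36 in hypoosmotic livers, against 5.31, 5.0, 5.04 and 5.11 in normoosmotic livers. All hypoosmotic values were higher, but replicate 3 was far above the rest. The difference of 1.21 (0.14 to 2.27) did not pass (adjusted p = 0.179, limma) and was 0.59 without that array. Jun was at 0.07 and Egr1 at -0.04, each with overlapping groups. Of 7 phosphatases outside the DUSP family that act on MAPK pathways, 0 passed (0 at an unadjusted p under 0.05, limma), with differences from -0.27 to 0.15.

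**Figure D4:**
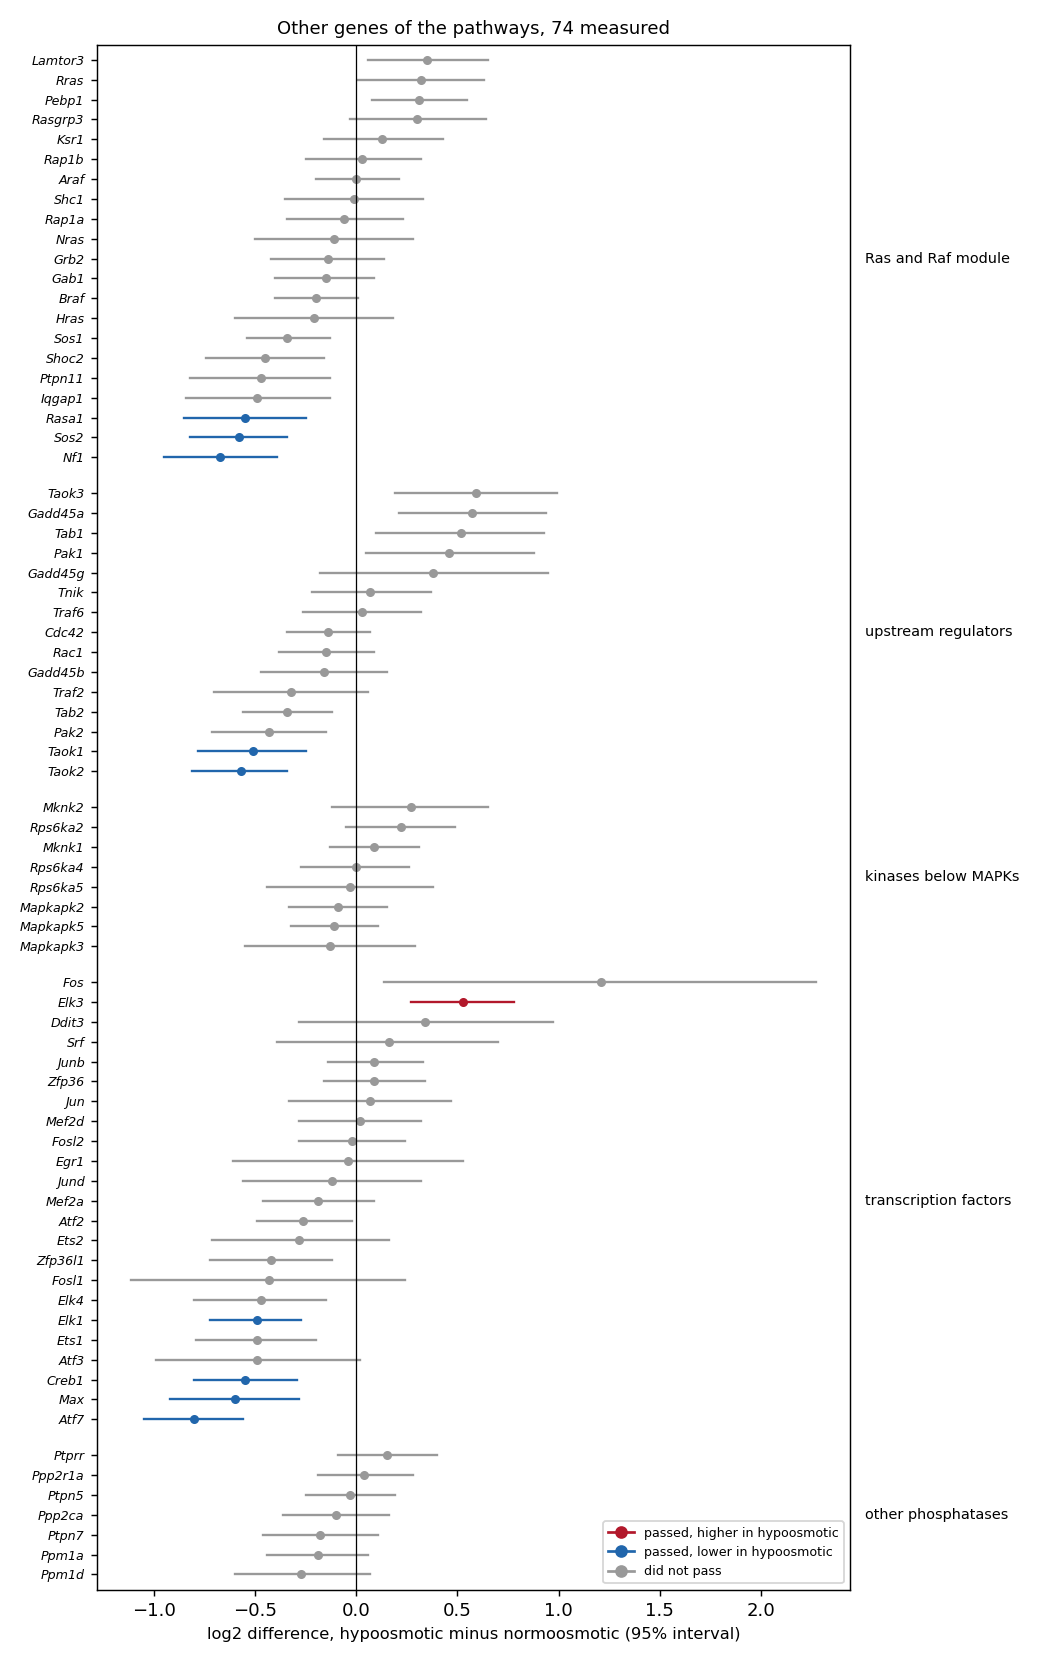
Log2 difference (hypoosmotic minus normoosmotic) with its 95% limma interval for 74 genes above and below the cascades, grouped by role, coloured as blue (passed, lower in hypoosmotic livers), red (passed, higher) or grey. The 9 genes that fell lie between -0.80 and -0.49, and the kinases below the MAPKs lie between -0.13 and 0.27.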

How the data were processed

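The deposited values of the authors are log2 signals of 27596 probe sets on 8 arrays, with array medians of 3.92 to 4.05. The tools named per the submitters' processing notes are RMA, Transcriptome Analysis Console 4.0 and Affymetrix Expression Console, with roles not given in the sources used here. RMA brings the arrays to a common distribution, which can hide a shift of most genes. Scanner files were not used here.

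Probe sets were named from the platform annotation of the array, and symbols were updated by gene identifier. Of the probe sets, 15316 had 1 symbol, which gave 14511 genes after taking the highest-mean probe set of each. The test of hypoosmotic minus normoosmotic values was limma's (version 3.58.1, R 4.3.3), with group as the only term, lmFit, then eBayes (two-sided, Benjamini-Hochberg over all genes, threshold 0.05), which was tested on simulated data. Intervals are limma's 95% intervals, without adjustment. Python 3.11.15, pandas 2.3.3 and matplotlib 3.10.9 were used for tables, promoter searches and plots.

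The members, tiers, lists and named genes were chosen with earlier results of these data known. Named were all members that passed, in each tier the member with the smallest p and the one with the highest level among the others, 20 listed members (3 not analysed here), and other pathway genes that passed or were listed. Further genes, and the 13 pairs, were named after their values were seen. Alternatives were the replicate number as a block, trend and robust variances, array weights, quantile normalization, median centring, leaving out the 30% dimmest genes, averaging probe sets, testing all probe sets, and leaving out each array. Same-numbered arrays of the groups had deviations from their group means that correlated at 0.01 to 0.26, so the numbers were not taken as pairs.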

Additional observations from a re-analysis of the deposited data

Results flagged for a closer look

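In 6 of the 102 groups of 4 arrays examined, 1 array stood far from the other 3 (Dixon's test at its 95% level). Chance flags about 1 in 20 groups. Dusp16 was 9.51 in normoosmotic replicate 3, with the other 3 arrays at 9.11 to 9.15. Map2k7 was 5.82 in normoosmotic replicate 4, below 6.08 to 6.12 in the others. Map2k1 was 6.12 in hypoosmotic replicate 3, below 6.75 to 6.79, and its difference was -0.30 without that array, against -0.46 with it. Dusp4 was 3.91 in hypoosmotic replicate 3, above 3.09 to 3.23. Map4k4 was 7.15 in hypoosmotic replicate 1, above 6.58 to 6.67. Hras was 7.54 in hypoosmotic replicate 3, above 6.75 to 6.84. Of these 6 values, 3 were on hypoosmotic replicate 3, the array that stood apart on the second principal component.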

How the results depend on the processing

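Across the 16 alternatives, every direction of the genes that passed was kept. Falls among the members numbered 10 with the deposited values and 7 to 10 in the alternatives that kept all arrays. Map3k13 was the only rise with the deposited values. The number of rising members was 0 with all probe sets tested, array weights, a further quantile normalization or median centring. With 1 array left out, the rising member, where there was 1, was Map3k13, Map3k7cl or Mapk14. Leaving out 1 array gave 5 to 9 falling and 0 to 1 rising members, 3 to 4 falling and 0 to 1 rising kinases and binding proteins, 2 to 5 falling inhibitors, 5 to 10 falling and 0 to 1 rising genes above and below the cascades, and 331 to 659 falling and 137 to 392 rising genes in all. Fewer arrays also mean less power. Median centring gave 271 rises and 835 falls over all genes (75.5% falls, against 65.3% with the deposited values). With the replicate number as a block, 2 members rose (Mapk14 beside Map3k13, adjusted p = 0.047), 7 fell, and 3 of the other pathway genes rose. Dusp6 (0.0518), Dusp16 (0.0636) and Map2k4 (0.0542) did not pass with the block, and 3 of 4 hypoosmotic arrays correlated best with the normoosmotic array of their own number, a hint from the data and not from the design. Signs turned only in genes that did not pass. With array weights these were Dusp1 (-0.12), Jun (-0.05) and Map4k4 (0.04), and after quantile normalization Map4k4 (0.02). With 1 array left out, Dusp1 reached -0.19 to 0.59, Spry4 -0.08 to 0.01, Map4k4 -0.16 to 0.05, Dusp12 -0.04 to 0.22, Jun -0.07 to 0.21 and Egr1 -0.18 to 0.22. Members near background have no reliable fold.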
